A study of Homo sapiens with 4 samples.

Results

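The mRNAs of the MCM family, the genes MCM2 to MCM10, were examined among the RNAs recovered with FLAG-tagged ORC1 from HCT116 nuclei. HCT116 is an established line of human colorectal carcinoma cells. The members were the 9 genes of that name in GENCODE v44, and all 9 were found by Ensembl identifier among the 63677 genes of the count table and all 9 passed the filter on low counts, which left 14645 genes. RNA immunoprecipitation followed by sequencing (RIP-seq) gave 4 libraries, 2 from the ORC1-FLAG immunoprecipitate (IP) and 2 from the nuclear lysate it was taken from (Input), with replicate 1 and replicate 2 in each group. Cells of both groups had been transfected for 48 h with a plasmid encoding ORC1-3xFLAG, and were asynchronous and not crosslinked. No library from a control antibody or from untransfected cells was analysed here, so RNA that sticks to beads or antibody cannot be told apart from RNA held by ORC1. Setting IP against Input addresses which RNAs of the nucleus travel with ORC1, a subunit of ORC, the origin recognition complex.

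MCM2 to MCM7 form the ring-shaped helicase that ORC, CDC6 and CDT1 load onto DNA at replication origins in G1, and that unwinds the DNA in S phase once CDC45 and the GINS complex have joined it. MCM10 is not a ring subunit but an activator that helps the loaded helicase start to move. MCM8 and MCM9 are related proteins that form a complex of their own, which acts in homologous recombination. Genes of the family are induced by E2F as cells enter the cycle, and proliferating cells carry much MCM2 to MCM7 mRNA.

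All 9 mRNAs had more normalised reads in IP than in the Input of the same replicate, in both replicates, which held for 42.9% of the genes tested. In edgeR 6 were enriched, namely MCM10, MCM3, MCM7, MCM6, MCM2 and MCM4, against 10.5% of all genes tested, and 0 were depleted, against 8.3% (18.8% in either direction). In the members' range of coding length, 422 of 2091 tested protein-coding genes were enriched. The 6 lay above 91.2% to 98.8% of tested genes in mean Input level, and MCM5, MCM8 and MCM9 above 95.9%, 77.3% and 55.1%. MCM10 had the highest fold change of the family, 4.86-fold, followed by MCM3 at 3.53-fold. MCM5, MCM8 and MCM9 did not pass, with folds of 1.39, 1.25 and 1.45. Enriched here means an adjusted p below 0.05 over all genes and a log2 fold change above 1. At that adjusted p and any fold change the same 6 members were higher in IP, against 13.0% of genes, and 0 lower, against 9.96%. With the counts scaled by library size alone, the log2 fold changes of all genes moved by a median of -0.60, and 380 of 14645 genes were enriched. MCM3 and MCM10 alone among the 9 were then still enriched, while the log2 fold changes of MCM5, MCM8 and MCM9 were below 0.

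The libraries held 20280445 and 27483148 counts in IP and 9213877 and 14677002 in Input. Levels are given as CPM, the counts per 1000000 of a library total that edgeR's TMM factor has rescaled. The epithelial markers EPCAM, CDH1, KRT8, KRT18 and KRT19 were between 46.8 and 2055 CPM in every library, whereas the epithelial marker VIL1 reached 0.284 CPM at most. Of the markers of other cell types, PTPRC, CD3E, PECAM1 and ALB were at or below 0.228 CPM, and the fibroblast marker COL1A1 was at 7.90 to 26.7 CPM and enriched in IP (log2 fold change 1.38). ORC1, the transfected gene, was at 1108 and 18551 CPM in IP replicates 1 and 2 and at 333 and 5063 CPM in the Inputs, so that replicate 2 carried far more of its RNA in both groups. The part of this difference in the MCM values was not tested.

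Tandem GAA units, a motif the study was concerned with, were searched for in the coding sequences of the members. The study found such repeats in many RNAs bound by ORC1. From crosslink positions and binding assays in vitro, it concluded that the binding does not go through them. Stretches of 30 bases of the coding sequence around such runs are shown for members at both ends of the order, with the GAA run in capitals. They come from the canonical transcripts of GENCODE v44 on GRCh38, positions within the coding sequence counted from the A of the start codon. The first pair is from MCM10, the member with the highest ratio, the second pair from MCM6, and the last 3 are runs of 2 units from MCM3, MCM5 and MCM8.
MCM10, coding positions 249 to 278, exon 3, chr10:13171163-13171192, plus strand: cttaacagatGAAGAAGAAgttcccgcatc
MCM10, coding positions 1166 to 1195, exon 9, chr10:13186231-13186260, plus strand: gtaaagccaaGAAGAAGAAtggagagccgt
MCM6, coding positions 2193 to 2222, across the junction of exons 15 and 16, chr2:135844672-135846253 with the intron, minus strand: cagaaaggtgGAAGAAGAAgaggacgagtc
MCM6, coding positions 2277 to 2306, exon 16, chr2:135844588-135844617, minus strand: gatagactctGAAGAAGAActtataaataa
MCM3, coding positions 1971 to 2000, exon 14, chr6:52267937-52267966, minus strand: tctggagaaggaGAAGAAacgtaagaagcg
MCM5, coding positions 1035 to 1064, exon 8, chr22:35412625-35412654, plus strand: gggcacagacatGAAGAAggccattgcctg
MCM8, coding positions 1183 to 1212, exon 10, chr20:5967985-5968014, plus strand: gagattcaagctGAAGAAaacctgtttaaa

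MCM10 (ENSG00000065328, chromosome 10 from 13161558 to 13211110, plus strand), the activator, gave 732 CPM in IP replicate 1 and 534 in IP replicate 2, and the Inputs gave 146 and 114. The IP libraries stood well clear of the Inputs, and the log2 ratio of IP to Input hardly differed between replicates, at 2.32 and 2.22. In edgeR the fold change came to 2.28 ± 0.30 on the log2 scale (SE, n = 2 per group, adjusted p = 0.0105), which lay above 99.6% of all genes tested. In the fits that left out 1 library it stayed between 1.97 and 2.54 and was called in each.

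**Figure D1:**
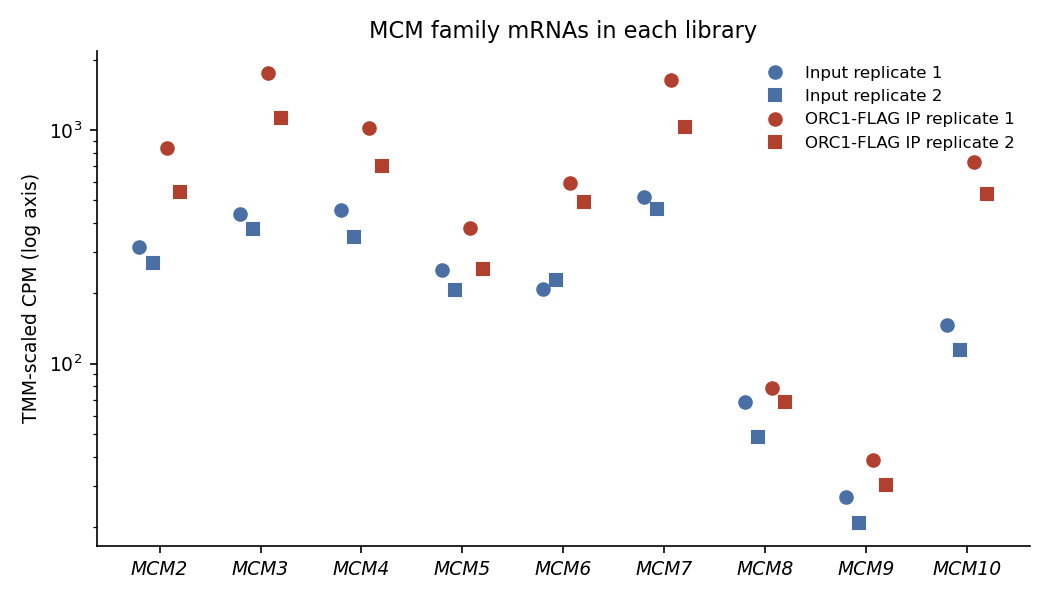
TMM-scaled CPM (log axis) of the 9 MCM mRNAs in the 2 Input (blue) and the 2 ORC1-FLAG IP libraries (red), circles for replicate 1 and squares for replicate 2. Both red points lie above both blue points for each gene except MCM8, where IP replicate 2 (68.7 CPM) and Input replicate 1 (68.9 CPM) meet.

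Of the ring subunits, MCM3 (ENSG00000112118, chromosome 6 from 52264014 to 52284881, minus strand) had the highest ratio. Its IP libraries read 1748 and 1123 CPM and its Inputs 437 and 377 CPM, with log2 ratios of 2.00 and 1.57 and an edgeR log2 fold change of 1.82 (SE 0.32, n = 2 per group, adjusted p = 0.0140). MCM7 (ENSG00000166508, chromosome 7 from 100092233 to 100101940, minus strand) read 1639 and 1029 CPM in the IPs and 517 and 459 in the Inputs. The IP values of MCM7 lay far above its Input values but differed more between replicates, with ratios of 1.66 and 1.16 and an edgeR log2 fold change of 1.45 (SE 0.32, adjusted p = 0.0230). Without IP replicate 1, MCM7 was at 1.12 and was no longer called (edgeR adjusted p = 0.0570).

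MCM6 (ENSG00000076003, chromosome 2 from 135839626 to 135876443, minus strand) read 592 and 489 CPM in the IPs and 208 and 228 in the Inputs. It was the only member with more in Input replicate 2 than in Input replicate 1, with log2 ratios of 1.51 and 1.10, and edgeR put its log2 fold change at 1.31 (SE 0.26, n = 2 per group, adjusted p = 0.0171). MCM2 (ENSG00000073111, chromosome 3 from 127598410 to 127622436, plus strand) read 836 and 542 CPM in the IPs and 316 and 269 in the Inputs, with log2 ratios of 1.40 and 1.01 and an edgeR log2 fold change of 1.24 (SE 0.31, adjusted p = 0.0305). MCM4 (ENSG00000104738, chromosome 8 from 47960185 to 47978160, plus strand) read 1019 and 701 CPM in the IPs and 452 and 348 in the Inputs, with log2 ratios of 1.17 and 1.01 and an edgeR log2 fold change of 1.10 (SE 0.31, adjusted p = 0.0429). In all 3, both IP libraries exceeded both Inputs. MCM2 and MCM4 lost the call without IP replicate 1 (0.93 and 0.85) and without Input replicate 2 (0.97 and 0.77), and MCM4 also with RLE size factors (1.07), upper-quartile scaling (0.93) and no count filter (1.07).

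MCM5 (ENSG00000100297, chromosome 22 from 35400134 to 35425431, plus strand) was the ring subunit that did not pass. Its IP libraries were at 380 and 255 CPM and its Inputs at 252 and 206, so that IP replicate 2 barely exceeded Input replicate 1. The ratios were 0.59 and 0.31 and the edgeR log2 fold change 0.47 (SE 0.29, n = 2 per group, adjusted p = 0.275).

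MCM8 and MCM9, the recombination pair, were the members with the lowest levels. MCM8 (ENSG00000125885, chromosome 20 from 5950652 to 5998977, plus strand) read 79.0 and 68.7 CPM in the IPs and 68.9 and 48.8 in the Inputs, and its groups overlapped. Its log2 ratios were 0.20 and 0.49, and edgeR put its log2 fold change at 0.33 (SE 0.25, n = 2 per group, adjusted p = 0.385). MCM9 (ENSG00000111877, chromosome 6 from 118813442 to 118935162, minus strand) read 38.9 and 30.2 CPM in the IPs and 26.8 and 20.8 in the Inputs, with a ratio of 0.53 in both replicates and an edgeR log2 fold change of 0.54 (SE 0.25, adjusted p = 0.164). These were raw counts of 809 and 531 in IP and of 468 and 243 in Input, the fewest of the family. With the replicate number as a block, the same 6 members were enriched, against 13.4% of genes. In that fit MCM5 (edgeR adjusted p = 0.0350) and MCM9 (edgeR adjusted p = 0.00964) passed the p threshold but not the fold change minimum, and MCM8 passed neither (edgeR adjusted p = 0.0840), so that 8 of 9 were past the p threshold and higher in IP, against 28.7% of genes.

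Both IP libraries exceeded both Inputs in 8 of the 9 members, against 33.2% of the genes tested, and both were below both Inputs in 0 of 9, against 31.9%. The log2 ratio was above 1 in both replicates in 6 of 9, against 8.95%. The family together made up 0.288% and 0.263% of all counts in Input replicates 1 and 2, and 0.535% and 0.414% in the IPs. Among the 36 pairs of members, the replicate ratios of 27 pairs did not overlap, and 33 pairs had the same order in both replicates. Pairs of other genes were not counted, so no share over all genes stands beside these numbers. MCM10 stood above the 8 other members in both replicates, and so did MCM3 above all members below it. Across replicates, the higher ratio of MCM7 (1.66) exceeded the lower one of MCM3 (1.57). Within replicates 1 and 2, MCM3 was above MCM7 by 0.34 and 0.41. MCM7, MCM6, MCM2 and MCM4 overlapped one another in every pairing, and so did MCM9 with MCM5 and MCM5 with MCM8. Within replicates, only MCM2 with MCM4, MCM9 with MCM5 and MCM5 with MCM8 changed order.

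**Figure D2:**
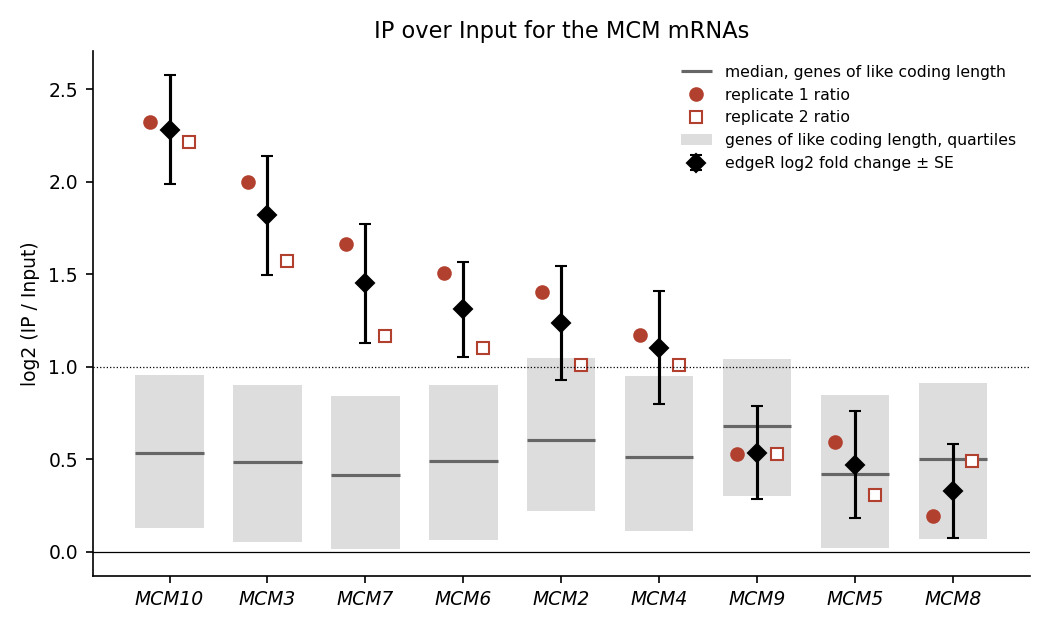
Log2 ratio of IP to Input for each MCM mRNA, with replicate ratios (red circle and open square), the edgeR log2 fold change with its SE (black), and the quartiles (grey bar) and median (grey line) of tested protein-coding genes within 0.1 of its coding length on the log2 scale. MCM10 and MCM3 lie highest at 2.28 and 1.82, and MCM9, MCM5 and MCM8 lie within the grey bars.

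Each member was then read against genes of like coding length. The members span a narrow range, from 2160 bases of coding sequence in MCM7 to 3432 in MCM9, and within that range 2091 tested protein-coding genes had a median log2 fold change of 0.55, with 422 enriched and 10 depleted. The 9 members had a median of 1.24, and all genes tested a median of 0.0079, so genes of this length were above the whole table to begin with. Within 0.1 on the log2 scale of its coding length, MCM10 (2625 bases) lay above 99.4% of 650 genes, whose median was 0.53 and whose quartiles were 0.13 and 0.96. MCM3 (2427 bases) lay above 97.2% of 724 genes, MCM7 above 93.7% of 828 and MCM6 (2466 bases) above 90.7% of 696. MCM2 (2715 bases) and MCM4 (2592 bases) lay above 82.9% and 82.7% of theirs. MCM5 (2205 bases) lay near the middle of its window, above 53.4% of 827 genes, and MCM8 (2523 bases) and MCM9 lay below the middle, above 38.2% of 654 and 39.7% of 451 genes. Without IP replicate 1, the distance above the window median went from 0.63 to 0.26 in MCM2, from 0.59 to 0.27 in MCM4 and from 1.03 to 0.67 in MCM7. Without Input replicate 2 it was 0.40 in MCM2 and 0.28 in MCM4. MCM5, MCM8 and MCM9 lay on either side of their window medians depending on the library left out. MCM9, the longest, had one of the 3 lowest fold changes, and over the 9 members coding length and log2 fold change gave a Spearman rho of -0.12, a description over genes that share the same 4 libraries.

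**Figure D3:**
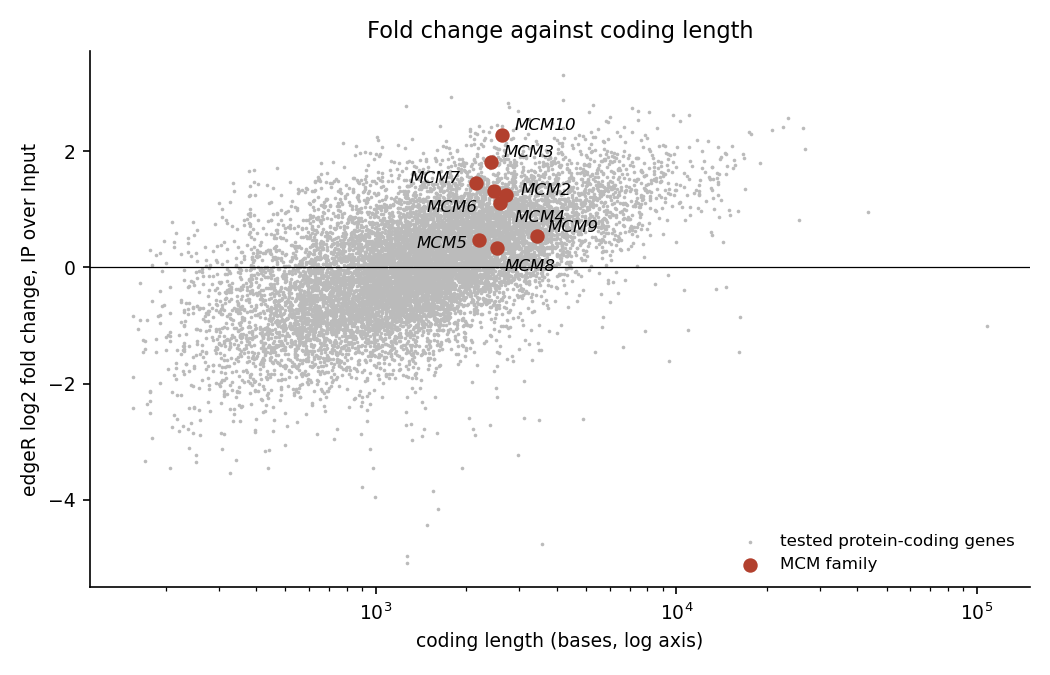
EdgeR log2 fold change of IP over Input against coding length (bases, log axis) for 12534 tested protein-coding genes (grey) and the 9 MCM genes (red). The family sits in a narrow span of coding length, between 2160 and 3432 bases, but covers fold changes from 0.33 (MCM8) to 2.28 (MCM10).

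Levels of different mRNAs were compared per kilobase of the canonical transcript. In Input, MCM7 was highest at 198 ± 16.7 CPM per kb (SD, n = 2 libraries), followed by MCM3 (133 ± 13.9), MCM4 (98.5 ± 18.2), MCM2 (85.2 ± 9.58), MCM5 (66.3 ± 9.34) and MCM6 (58.1 ± 3.72). MCM4 and MCM2 overlapped in this order, as did MCM5 and MCM6. The order depends on the length used, since per kb of the union of exons MCM4 (45.9 and 35.3 CPM per kb) was below MCM2 (67.0 and 57.1) and MCM6 (50.4 and 55.2) in both Inputs, and MCM3 was highest. On the transcript scale, MCM10 was lower than the ring subunits at 28.6 ± 4.87, and MCM8 (7.86 ± 1.90) and MCM9 (4.56 ± 0.81) were lowest. In IP, MCM7 (541 ± 175) and MCM3 (468 ± 144) were again highest, and MCM10 reached 139 ± 30.8 CPM per kb (SD, n = 2 libraries), which overlapped MCM6 (144 ± 19.4) and exceeded MCM5 (91.9 ± 25.6).

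The shares of the 6 ring subunits within a library do not depend on how libraries are scaled against each other. MCM3 made up 20.8% and 20.7% of their summed level per kb in Input replicates 1 and 2, and 28.5% and 27.8% in IP. MCM5 went the other way, from 10.7% and 10.1% in Input to 5.51% and 5.60% in IP. The shares of MCM6 overlapped between groups (8.11% and 10.2% in Input, 7.91% and 9.90% in IP), and MCM7 was at 30.7% and 31.4% in Input and at 33.3% and 31.7% in IP. MCM2 went from 13.4% and 13.2% to 12.2% and 12.0%, and MCM4 from 16.3% and 14.4% to 12.6% and 13.1%, both lower in each IP than in each Input. The 6 shares of a library sum to the whole, so a lower share is not a lower level. In edgeR MCM2 and MCM4 were enriched in IP (log2 fold change 1.24 and 1.10). No test was run on these shares, and the smallest two-sided p that an exact permutation test of 2 libraries against 2 allows is 0.333. With the union of exons as the length, MCM3 in place of MCM7 was the highest of the 6 in every library, and the shares of MCM3 and MCM5 moved the same way.

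**Figure D4:**
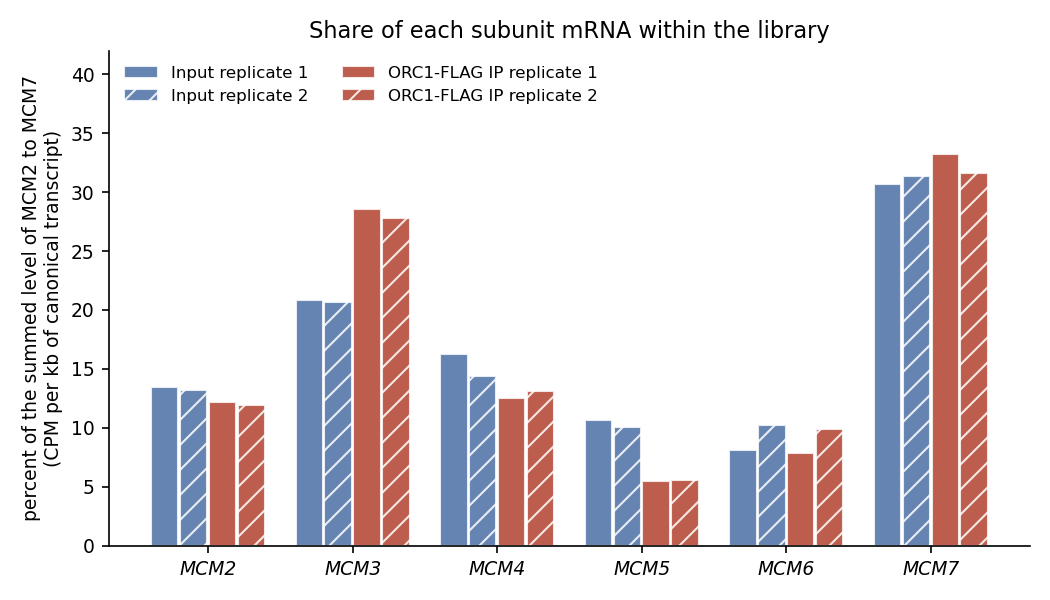
Share of each ring subunit mRNA in the summed level of MCM2 to MCM7 (percent, CPM per kb of canonical transcript) in each of the 4 libraries. MCM3 takes 20.7% to 20.8% in Input and 27.8% to 28.5% in IP, and MCM5 10.1% to 10.7% in Input and 5.51% to 5.60% in IP.

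GAAGAA was counted on the sense strand of the coding sequence, overlapping matches included. MCM10 held 13, a number that 1.83% of the 2082 other tested genes in the members' range of coding length reach. MCM6 held 6, MCM4 5, MCM3 and MCM5 3 each, and MCM2, MCM7, MCM8 and MCM9 2 each, beside a median of 3 in the other genes, 88.9% of which hold at least 1. GAAGAAGAA was present in the coding sequences of MCM10, MCM6 and MCM4, and in 17.2% of the other genes. All 4 runs of MCM6 were in frame as GAA, a codon for glutamate, as were 7 of the 11 runs of MCM10, and the other 4 of MCM10 and all runs of MCM3, MCM5 and MCM7 were read as AAG, a codon for lysine. The reverse complement TTCTTC occurred 4 times in the MCM10 transcript and 5 times in that of MCM9, the highest number of the family.

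Genes of this range with 0 or 1 GAAGAA in the coding sequence had a median log2 fold change of 0.37 (568 genes, 6.51% enriched), and those with 7 or more a median of 1.08 (340 genes, 49.1% enriched). Among the latter, MCM10 at 2.28 lay above the upper quartile of 1.49. MCM6 and MCM4, with 6 and 5 occurrences, were enriched and lay above the upper quartile of the genes with 4 to 6 (0.97). Of those 538 genes 21.0% were enriched, with a median of 0.57. MCM3, MCM7 and MCM2, with 3, 2 and 2 occurrences, were enriched, as were 15.6% of the genes with 2 or 3. The median of that bin was 0.49. MCM5, MCM8 and MCM9, with the same low numbers, lay within the quartiles of that bin (0.093 and 0.87). Across the 9 members, the number of GAAGAA and the log2 fold change gave a Spearman rho of 0.47, and the same hexamer counted over the whole transcript gave -0.034. Transcript length gave -0.48, 3′ UTR length -0.37, Input level per kb 0.43 and GC content of the transcript 0.083. All of these were descriptions over 9 genes, and what lies behind them was not tested.

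**Figure D5:**
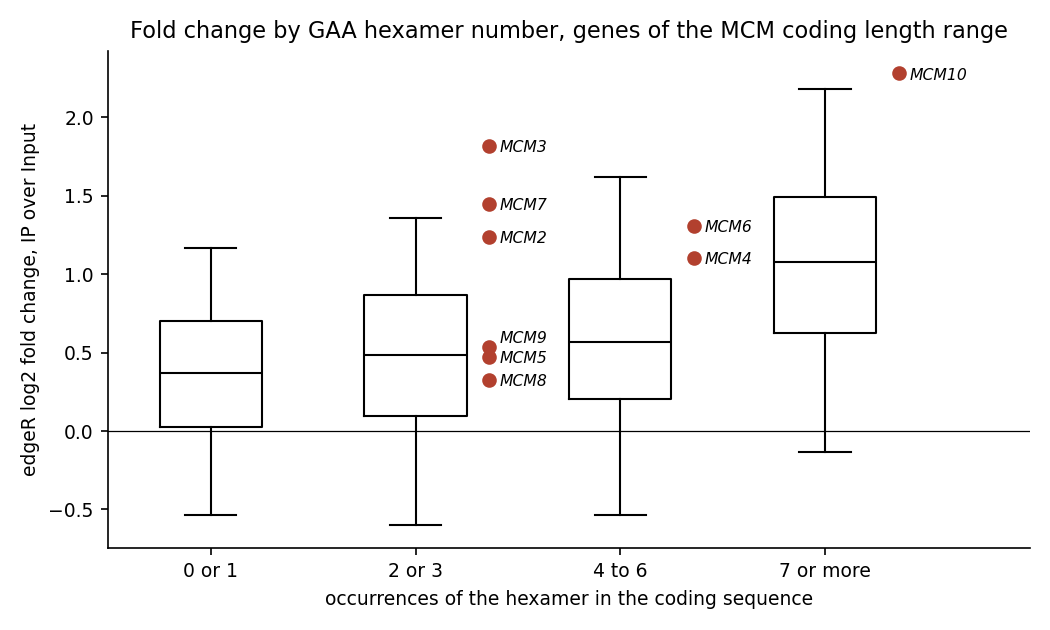
EdgeR log2 fold change of tested genes in the members' range of coding length, binned by the number of GAAGAA hexamers in the coding sequence (boxes, quartiles and median; whiskers, 5th and 95th percentiles), with the MCM genes beside their bin (red). MCM10 lies with the genes of 7 or more, above their upper quartile of 1.49, while MCM3, MCM7 and MCM2 lie above that of the genes with 2 or 3 (0.87).

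Other genes share the loci of some members. MCM7 carries the microRNA genes MIR106B, MIR93 and MIR25 within its span, and each of these held at most 2 counts in a library. AP4M1, on the opposite strand, shares 392 exonic bases with MCM7 (7.90% of the MCM7 exons) and was not called, with a log2 fold change of -0.13 (edgeR adjusted p = 0.719). ASF1A, a histone chaperone gene on the opposite strand within the span of MCM9, shares 205 exonic bases with it and was depleted, at -2.33 (edgeR adjusted p = 0.0107), with 126 and 98 counts in IP and 652 and 246 in Input. ENSG00000285600, opposite to MCM2, and ENSG00000286235, on the strand of MCM8, overlap 23.6% and 33.3% of the exonic bases of these genes. Neither is among the genes of the count table, and whether their reads were counted to MCM2 or MCM8 is not known. Whether the counting used strand is not stated, so reads of opposite genes cannot be told apart in the shared bases. MCM3AP-AS1, the antisense RNA of the MCM3AP locus, held 45 to 62 counts in a library and was at -0.24 (edgeR adjusted p = 0.729).

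The lists of other replication genes are read beside all genes tested, of which 10.5% were enriched and 8.3% depleted, and their coding lengths differ from those of the members. Of the 9 helicase loading genes (630 to 2586 bases of coding sequence), 2 were enriched and 0 depleted, with a median log2 fold change of 0.42. ORC3, a subunit of ORC, rose by 1.47 and GMNN, the inhibitor of CDT1, by 1.33 (edgeR adjusted p = 0.0229 and 0.0220). ORC1 itself was at 1.87 (edgeR adjusted p = 0.374) and was enriched with the replicate block, at 1.80 (edgeR adjusted p = 3.16e-06). These counts may join plasmid and chromosomal RNA. The study states that the plasmid sequence was codon-optimised, and how much of its RNA was counted as ORC1 is not known. The calls in this list changed without Input replicate 2, a fit with 1 Input library. Of the 13 partners of the active helicase and firing factors (558 to 5733 bases), 2 were enriched and 1 depleted, near the shares over all genes, with a median of 0.46. TICRR and TOPBP1, which help to recruit CDC45 and GINS, rose by 1.31 and 1.30 (edgeR adjusted p = 0.0134 and 0.0330), and GINS1, a GINS subunit, was at -1.25 (edgeR adjusted p = 0.0263). GINS1 was no longer called without Input replicate 1 or without IP replicate 2, and the number of enriched genes of this list also changed with the library left out.

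Of 10 genes whose proteins bind or act with MCM (906 to 5943 bases), 9 were tested, 4 were enriched and 0 depleted, with a median of 0.96, against 10.5% enriched over all genes. They were the fork protein WDHD1 (1.80), the checkpoint adaptor CLSPN (1.50), MCM3AP (1.41), which acetylates MCM3, and TONSL (1.17), a partner of MCM2 in histone handling, with edgeR adjusted p values from 0.0119 to 0.0175. MCMBP, which binds MCM subunits outside the ring, was at 0.31 (edgeR adjusted p = 0.532). The 4 enriched genes have 3390 to 5943 bases of coding sequence, and this list was not compared with genes of like length. Of 16 other DNA helicase genes, 9 were enriched and 0 depleted, with a median of 1.10, again against 10.5% enriched and 8.3% depleted over all genes. Their coding lengths ran from 1926 to 6609 bases, so many are longer than the members, and they were not compared with genes of like length. The 5 with the highest fold change were BLM (1.90), ASCC3 (1.60), WRN (1.46), ERCC3 (1.43) and FANCM (1.40), with edgeR adjusted p values from 0.0107 to 0.0167. With library size alone as the scale, 0 genes of the first 2 lists, 1 of the MCM-binding list and 1 of the other helicases were enriched. Over all genes tested it was 380 of 14645.

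The tested protein-coding genes closest to MCM2 to MCM7 in their pattern over the 4 libraries were EIF3B, a translation initiation factor subunit, ATF6B, a stress-responsive transcription factor, and WDR46, a nucleolar protein. Likeness was the Euclidean distance between log2 CPM profiles centred on their own means and the mean profile of the 6 subunits, over 12525 genes, and it was 0.043, 0.045 and 0.052. Their log2 fold changes were 1.28, 1.26 and 1.26.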

How the data were processed

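The deposited values are raw read counts per Ensembl gene, not normalised. As the study's methods and the submitters' processing notes state, the authors trimmed reads with Trimmomatic, aligned them with STAR to hg19, removed reads on GL contigs and counted with featureCounts. The annotation release, the strand setting and whether multimapped reads counted are not given in the sources used here. Libraries were made with a stranded total RNA kit after DNase treatment. Gene positions, lengths and printed bases were read from GENCODE v44 (GRCh38), joined by gene identifier, which 52181 of the 63677 genes had.

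Counts were tested with the quasi-likelihood test of edgeR 4.0.16 (R 4.3.3) with robust dispersions, TMM scaling, filterByExpr and group as the only term, and p values were adjusted by Benjamini-Hochberg over 14645 genes. The SE is the log2 fold change divided by the root of its F value. The biological coefficient of variation was 0.261. The scripts were tested on simulated data. Replicate ratios used a pseudocount of 0.5 CPM. Alternatives were 3 other scalings, 2 other filters, DESeq2 1.42.0, limma voom (limma 3.58.1), leaving out each library and a replicate block. The labels tie each IP to the Input of the same RIP replicate. Deviations from the group means of same-numbered libraries correlated at r = 0.645 across genes. The replicate ratios and the fit with the replicate block used these pairs. The main fit, with its SEs and adjusted p values, did not. The study describes its replicates as independent experiments, and p values cover the spread between these libraries. Reads carry no molecular identifiers.

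Named genes were the 9 members, called genes of the 4 pathway lists (at most 5 in each direction), genes that overlap members, the 3 nearest profiles and ORC1. MCMBP was named after its values were seen. The members, the lists and the GAA motif were chosen with earlier results of these data known.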

Additional observations from a re-analysis of the deposited data

How the results depend on the processing

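MCM10 and MCM3 were enriched under all 12 alternative fits, and 0 members were depleted in any. The number of members enriched was 6 with edgeR and TMM, against 1542 of 14645 genes. It was 5 with RLE size factors (1428 of 14645 genes), upper-quartile scaling (1080 of 14645) or no count filter (1581 of 31990). With scaling by library size alone it was 2, against 380 of 14645 genes. In the fits that left out 1 library the members' median log2 fold change was 0.93 to 1.49, the lowest without IP replicate 1. DESeq2, limma voom and the replicate block each called 6, against 1674 of 31990, 1542 of 14645 and 1960 of 14645 genes. The block changed no call of a member. MCM2 lost the call in 3 alternatives, MCM4 in 6, MCM7 in 2 and MCM6 in 1, and the cause was not tested beyond the scaling. The log2 fold changes of MCM5, MCM8 and MCM9 changed sign with library size alone (-0.14, -0.27 and -0.071), and that of MCM8 also without Input replicate 2 (-0.051), with 0.64 as its highest value in the fits that left out 1 library. Of the split between enriched and depleted calls over all genes, 55.9% were enriched with TMM, 10.4% with library size alone and 41.2% with upper-quartile scaling. With library size alone the lists held 0 enriched and 3 depleted (helicase loading), 0 and 2 (partners and firing factors), 1 enriched (MCM-binding) and 1 enriched (other helicases). In that setting 380 of 14645 genes were enriched and 3257 depleted. Upper-quartile scaling gave 1 depleted among the loading genes and 2 among the partners and firing factors, against 1542 of 14645 genes. Leaving out 1 library gave 1 to 2 enriched and 0 to 1 depleted loading genes, and 1 to 4 enriched and 0 to 2 depleted partners and firing factors. Relative to genes of like coding length, MCM10 stayed 1.46 to 1.98 above the window median and MCM3 1.00 to 1.64. MCM6 stayed 0.69 to 0.97 above it, MCM7 0.67 to 1.33, MCM4 0.27 to 0.83 and MCM2 0.26 to 0.94. MCM5 (-0.26 to 0.31), MCM8 (-0.50 to 0.18) and MCM9 (-0.42 to 0.13) crossed it. With windows of like exonic length instead, MCM10 was 2.22 above the median, MCM3 1.88, MCM7 1.45, MCM6 1.31 and MCM2 1.22. MCM4 was then 0.70 above it, MCM5 0.31, MCM8 0.062 and MCM9 0.0088. The SEs of the log2 fold changes lay between 0.25 and 0.32 in all 9 members, and MCM8 and MCM9, with the fewest counts, had the lowest.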
